A study of Mus musculus with 10 samples.

Results

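The comparison of 14 d with 24 h of osteogenic medium takes 4 of the 10 RNA-seq libraries of the series, 2 labelled 14d and 2 labelled 24h, chosen by these labels alone. All 4 come from MC3T3-E1, an established mouse pre-osteoblast line. Of 40620 genes in the deposited count table, 20808 passed the filter on low counts and were tested. The other libraries, from subconfluent, confluent and 21 d cells, 2 each, were used for a common estimate of the spread and are otherwise shown only beside results.

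Cells of both groups were grown in αMEM with 10% serum (iFBS) and were collected after 24 h or 14 d in the same differentiation medium, with β-glycerophosphate at 10 mM, ascorbic acid at 50 µg/ml, penicillin and streptomycin. Ascorbic acid is the cofactor with which cells hydroxylate collagen, and β-glycerophosphate is a source of phosphate for mineral. In this line, collagen matrix is laid down first, alkaline phosphatase follows, and late genes such as osteocalcin accompany mineral deposition. Osteoblasts bind and order mineral with acidic matrix proteins, release phosphate with ectoenzymes and end either as surface cells or as osteocytes inside the matrix. No library of 14 d cells without the osteogenic supplements was among the samples, so time in the medium and age of the culture cannot be told apart. Replicates are named A and B. The labels do not say whether they are separate cultures, and p-values then measure only the spread between libraries, which may be technical.

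The counts on genes summed to 136112934 in 24 h A, 115908557 in 24 h B, 136785258 in 14 d A and 48799711 in 14 d B, which was the shallowest. A pair of features of the libraries bears on every value below. The 24 h libraries carry index sequences of one set and the 14 d libraries those of another, so index set and stage cannot be told apart. The 24 h replicates also stood further from each other than the 14 d replicates did. Log2 ratios of A to B were taken for the 16133 genes that reached 10 counts in all 10 samples. Their SD was 0.674 in the 24 h pair and 0.321 in the 14 d pair. In the subconfluent, confluent and 21 d pairs it was 0.298, 0.306 and 0.283. The common spread used in the fit is thus below that of the 24 h pair. Fits without a 24 h library take nothing from that pair's spread, so holding a call in them is no check on it. The 24 h ratio moved with gene length, from a median of 0.364 in the shortest of 5 equal groups of genes (19 to 885 bases) to -0.418 in the longest (5246 to 52994 bases), whereas the 14 d ratio stayed between -0.0212 and 0.0143. Against 24 h A alone the 14 d mean ran from -0.237 in the shortest group to 0.385 in the longest, and against 24 h B alone from 0.0641 to -0.038. For most gene lists and for genes that changed more than 2-fold, results that rest on 1 library are therefore given with and without it. Smaller changes are, unless stated, from the fit of all 10 samples only. Where 5 counts are given for a gene list, they are those of the 5 fits with fewer libraries, in this order: without 24 h A, without 24 h B, without 14 d A, without 14 d B, and with the 24 h and 14 d libraries alone.

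**Figure D1:**
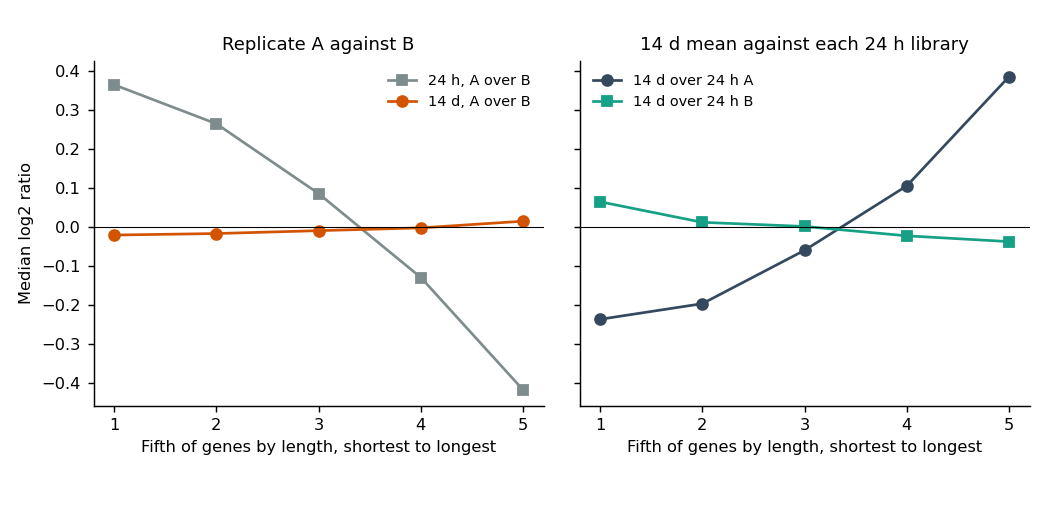
Median log2 ratio of expression (vertical axis) in 5 equal groups of 16133 genes ordered by length (horizontal axis), for replicate A over B at 24 h and at 14 d (left) and for the 14 d mean over each 24 h library (right). The 24 h replicates differ by 0.364 in the shortest and -0.418 in the longest genes, and the 14 d replicates by no more than 0.0212 in any group.

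In edgeR, 1245 genes changed more than 2-fold at an adjusted p under 0.05 and were called, 930 higher and 315 lower at 14 d. These are 5.98% of the genes tested, 4.47% called higher and 1.51% called lower, the shares to set beside the list counts below. At the same adjusted p without the limit on fold change, 1889 genes were higher (9.08%) and 1708 lower (8.21%), and over all tested genes the median of the log2 fold changes was 0.01. In bulk RNA, fewer cells of a kind and less of a transcript in each cell cannot be told apart, here and below. Fits without a 24 h library took no spread from the 24 h pair, and the number of calls rested on single libraries. It was 3055 without 24 h B, 1206 without 24 h A, 702 without 14 d A and 627 without 14 d B. When only the 24 h and 14 d libraries were fitted, it was 319, with 265 higher and 54 lower. Of the 1245 calls, 512 were also made in each of the 4 fits that left out 1 library, 408 of them higher and 104 lower. Of 109 genes named below that were called and were also tested with the 24 h and 14 d libraries alone, 50 lost their call in that fit, with adjusted p from 0.0506 to 0.249. Among matrix genes these were Bglap3, Sparc, Omd, Col1a1, Col11a1, Col24a1, Loxl4, Fbln2, Fn1, Eln, Lum, Postn, Tnn and Ccn1. Among genes of signalling and transcription they were Igfbp2, Wnt7b, Frzb, Lrp5, Grem1, Gdf6, Tnfrsf11b, Il34, Pth1r, Gprc5a, Sox9, Mef2c, Twist2, Klf2, Klf4, Bhlhe40, Zbtb16, Kdm3a and Kdm7a. The others were Smpd3, Enpp1, Adm, Ndrg1, Pfkl, Acta2, Myl9, Tpm1, Mthfd2, Gsta4, Steap1, Hs6st2, Ralgps2, Plin4, Fabp4, Krt14 and Cdh1. Genes given below as past the adjusted p under 2-fold did not pass with the 24 h and 14 d libraries alone. There their adjusted p ran from 0.067 for Slc20a1 to 0.28 for Col3a1.

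**Figure D2:**
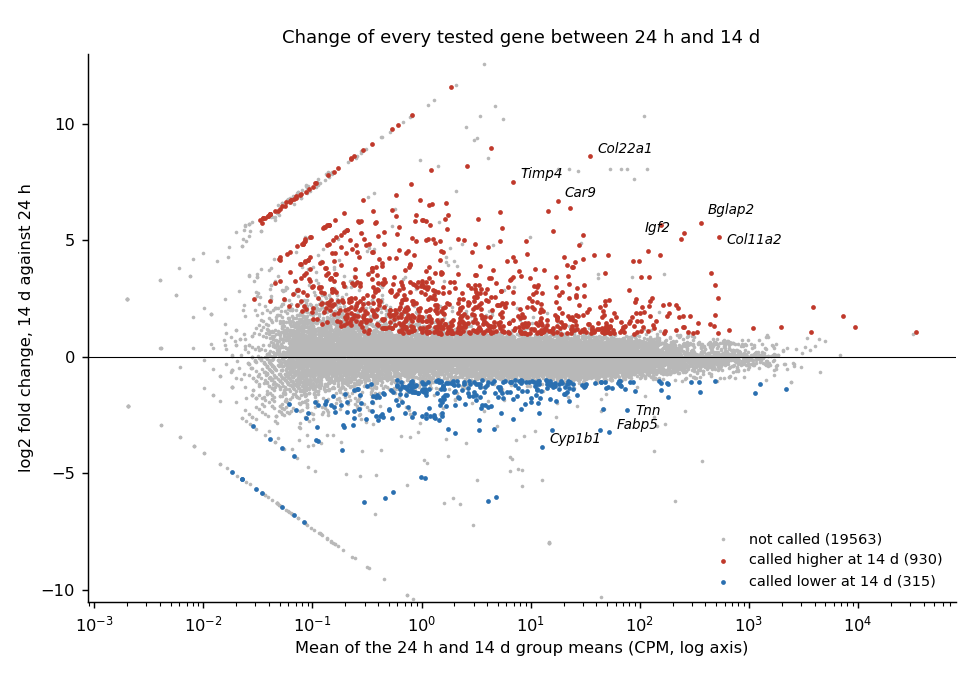
log2 fold change of each of the 20808 tested genes (vertical axis, positive where 14 d was higher) against the mean of the 2 group means (horizontal axis, CPM, logarithmic), with the 930 genes called higher, the 315 called lower and the rest in separate colours. The named genes with the largest changes lie away from the low-count edge at the left, where the diagonal rows of points are genes with no counts in one group.

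The 12 largest rises and 11 of the 12 largest falls are given below, taken from genes that held their call in all 4 such fits, had a mean of at least 5 CPM (counts of a gene per 1000000 counts of the library) and showed no overlap between groups, as did 53.8% of all genes tested. Positions are those of the whole gene in GENCODE vM21 on GRCm38. Values are CPM after TMM normalization, given for replicate A and then B. Col22a1 (chr15:71795795-72034227), a collagen found at tissue junctions, was at 0.171 and 0.188 CPM at 24 h and at 70.2 and 70.7 CPM at 14 d, the largest rise by this rule. Its log2 fold change was 8.61 (SE 0.371, adjusted p = 4.98e-05). Timp4 (chr6:115241892-115252205), an inhibitor of matrix metalloproteinases, was at 0.0734 and 0.0736 CPM at 24 h and at 13.3 and 14.2 CPM at 14 d. Both genes were close to absent in both early libraries and alike in the late pair. Rab11fip4, an effector of the Rab11 recycling endosome, went from 0.351 and 0.384 CPM to 28.9 and 27.6 CPM. Prex1, an exchange factor for Rac, went from 0.71 and 0.777 CPM to 30.8 and 32.4 CPM. Prss35, a serine protease-like protein, went from 1.58 and 1.58 CPM to 55.8 and 62.5 CPM. Btla, known as an inhibitory receptor of lymphocytes, went from 0.122 and 0.147 CPM to 9.31 and 11.3 CPM, while the pan-leukocyte gene Ptprc had 0 counts in all 4 libraries. The other rises in this group were Car9, Ankrd37, Bglap, Bglap2, Col11a2 and Igf2, which are described with their pathways.

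The falls were smaller. Cyp1b1 (chr17:79701537-79715061), a cytochrome P450 of the aryl hydrocarbon response, was at 20.2 and 27.8 CPM at 24 h and at 1.61 and 1.73 CPM at 14 d (log2 fold change -3.85, SE 0.188, adjusted p = 7.34e-05). Fabp5 (chr3:10012548-10016607), a fatty acid carrier, went from 115 and 73.9 CPM to 9.68 and 10.5 CPM. Both 24 h libraries were above both 14 d libraries by several-fold in each case. Steap1, a metalloreductase, went from 11.1 and 7.12 CPM to 1.96 and 1.39 CPM and Adra1d, an adrenergic receptor, from 14.4 and 17.4 CPM to 3.82 and 4.42 CPM. Hs6st2, which sulfates heparan sulfate chains, went from 29.1 and 41.4 CPM to 8.7 and 10.3 CPM. Arxes2 went from 20.3 and 17 CPM to 4.8 and 4.82 CPM and Ralgps2, an exchange factor for Ral, from 23.1 and 23.2 CPM to 7.86 and 5.36 CPM. Steap1, Tnn, Hs6st2 and Ralgps2 lost their call when only the 24 h and 14 d libraries were fitted, with adjusted p from 0.0506 to 0.0648. The remaining falls, Tgfbi, Tnn, Ccn3 and Ccn5, are matrix and signalling genes and are given below.

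**Figure D3:**
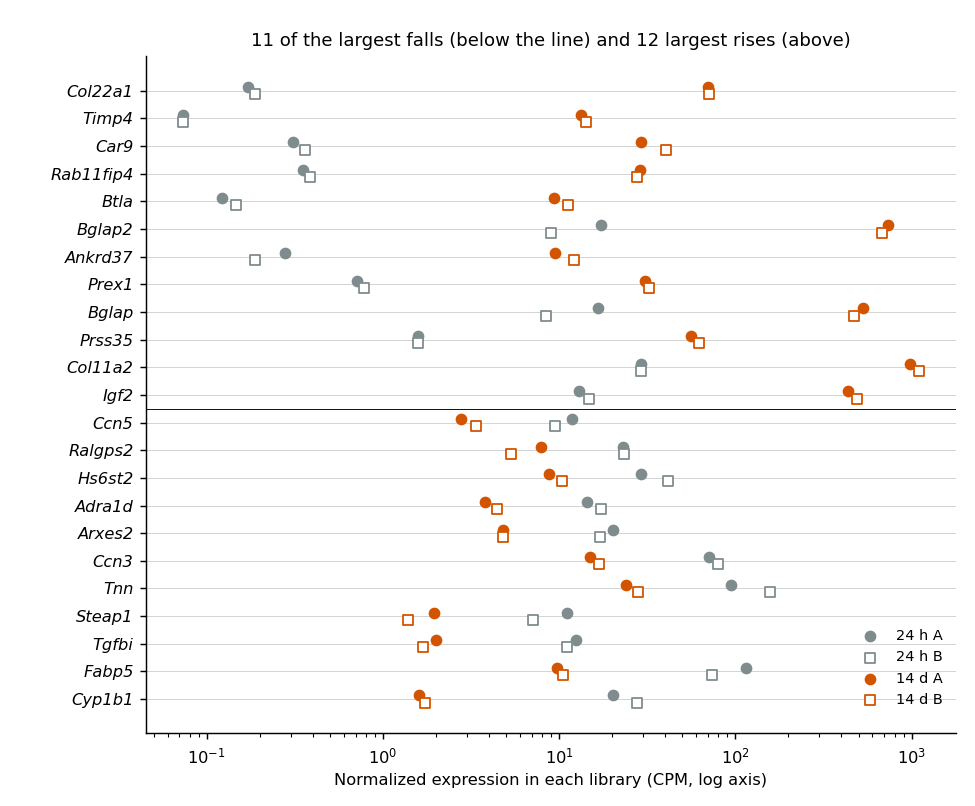
Normalized expression (horizontal axis, CPM, logarithmic) of 23 of the 24 genes with the largest rises and falls, with 1 point for each library, grey at 24 h, orange at 14 d, circles for replicate A and squares for B. In each gene the 14 d pair lies wholly on one side of the 24 h pair, as the rule that chose the genes required.

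Among the 13 tested genes for bone matrix and mineral-binding proteins, 9 were called higher and 2 lower, with a median log2 fold change of 2.15. These counts did not move when 1 library was left out, and were 6 higher and 0 lower with the 24 h and 14 d libraries alone. The osteocalcin genes rose most. Osteocalcin is the small calcium-binding protein of mature osteoblasts, and mice carry it in a cluster of related genes on chromosome 3. They are Bglap at chr3:88383501-88384464, Bglap2 at chr3:88377736-88378699 and Bglap3 at chr3:88368616-88372743. Bglap was at 16.7 and 8.46 CPM at 24 h and at 529.6 and 470.0 CPM at 14 d, Bglap2 at 17.3 and 9.04 CPM and 738 and 682 CPM, and Bglap3 at 12.8 and 7.13 CPM and 113 and 347 CPM. The 14 d pair was close together for Bglap and Bglap2 and apart for Bglap3. Taking the first annotated transcript of each gene, 74.4% of the 51-base windows of Bglap also occur in Bglap2 or Bglap3, and the share is 87.6% for Bglap2 and 23.4% for Bglap3, so reads of this length could be placed on more than 1 gene. For Bglap3 in 14 d A the 2 sequencing lanes held 10403 and 7470 counts and the merged column 14125. Summed over the 3 genes, expression was 46.8 and 24.6 CPM at 24 h and 1381 and 1499 CPM at 14 d, and the 14 d libraries were then close to each other.

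The RefSeq promoter window of Bglap on GRCm38.p6, chr3:88384417-88384716 on the minus strand, is shown because Bglap had the largest rise among the matrix genes with a window in the table, and because it holds a motif that recurs below in genes that fell. It runs from 250 bases before to 50 bases after the RefSeq start site. Capitals mark TGATGNAA, read here on the opposite strand as TTACATCA between bases -54 and -47, the letters of the known Atf4-binding element of mouse osteocalcin.
Bglap: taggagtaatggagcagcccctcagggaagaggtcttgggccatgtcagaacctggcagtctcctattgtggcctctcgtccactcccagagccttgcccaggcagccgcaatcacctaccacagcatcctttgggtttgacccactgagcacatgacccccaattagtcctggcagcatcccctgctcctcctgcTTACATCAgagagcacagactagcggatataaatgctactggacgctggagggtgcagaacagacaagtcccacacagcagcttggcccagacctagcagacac
The motif was found on either strand in 3.97% of 32851 promoter windows of this length. It was present in 2 of the 3 windows listed for Bglap3, and of the 9 matrix genes called higher 8 had a window, of which those of Bglap and Bglap3 held it. AACCACA, which is TGTGGTT on the other strand as in the Runx motifs of the study, was also sought. Of the 8 genes 1 held it, Dmp1, beside 5.27% of all windows. The list counts are by gene and the shares are by window.

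Ibsp, bone sialoprotein, which nucleates mineral, was at 1371 and 1496 CPM at 24 h and at 6062 and 6674 CPM at 14 d, a log2 fold change of 2.15 (SE 0.231, adjusted p = 0.0015). Sparc, osteonectin, a collagen- and calcium-binding protein, went from 5335 and 5662 CPM to 13592 and 13262 CPM. Ifitm5, a small membrane protein of osteoblasts, went from 18.7 and 11.9 CPM to 77.3 and 83 CPM, and Omd, osteomodulin, from 43.1 and 46.4 CPM to 136 and 207 CPM. In RPKM, which also divides by gene length in kilobases, Sparc and Ibsp were far above osteocalcin at 24 h, at 2475 and 2821 and 959 and 1124 RPKM against 39.3 and 21.3 RPKM for Bglap. At 14 d the levels were 6068 and 5764 RPKM for Sparc, 4081 and 4374 RPKM for Ibsp, 2193 and 1972 RPKM for Bglap2 and 1197 and 1034 RPKM for Bglap, and all 4 of these genes were higher than at 24 h. Spp1, osteopontin, and Mgp, the matrix Gla protein that inhibits mineral, did not pass the test. Spp1 was at 242 and 220.4 CPM and 336 and 343 CPM (adjusted p = 0.0876), and Mgp at 3174 and 2034 CPM and 1979.8 and 1709 CPM (adjusted p = 0.141). The 2 members called lower were Tnn and Postn.

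Of the genes that handle phosphate, several enzymes rose. Of 10 tested, 6 were called higher and none lower, with a median log2 fold change of 1.75. With fewer libraries, 5, 6, 6, 4 and 4 were called higher. Phospho1, the phosphatase that frees phosphate inside matrix vesicles, was at 16.5 and 17.9 CPM at 24 h and at 80.9 and 78.2 CPM at 14 d, a log2 fold change of 2.21 (SE 0.114, adjusted p = 8.51e-05). Exons of Phospho1 overlap those of Zfp652 and, on the other strand, Abi3, and the use of strand in counting was not given in the sources used here. Alpl, the tissue-nonspecific alkaline phosphatase, went from 30.7 and 30.9 CPM to 69.3 and 81.4 CPM. Phex, an endopeptidase whose loss causes phosphate wasting, went from 0.677 and 0.981 CPM to 17.8 and 17.6 CPM and Enpp6, a choline phosphodiesterase, from 0.0734 and 0.0736 CPM to 2.66 and 2.27 CPM. The groups did not overlap in these 4 genes, nor in 53.8% of all genes tested. Smpd3, a neutral sphingomyelinase needed for mineralization, was at 14.9 and 41.3 CPM at 24 h and at 153 and 162 CPM at 14 d. Its 24 h replicates differed by more than 2-fold, and without 14 d B its adjusted p was 0.0544. Enpp1, which makes the mineral inhibitor pyrophosphate, had 4 counts in each 24 h library and 14 and 19 at 14 d, and its call was lost without 24 h A (adjusted p = 0.076) and without 14 d B (adjusted p = 0.133). The sodium-phosphate cotransporters went the other way. Slc20a1 was at 23.4 and 22.8 CPM and 12.8 and 11.7 CPM (log2 fold change -0.91, adjusted p = 0.0015), and Slc20a2 at 30.2 and 35.4 CPM and 26 and 24.3 CPM (log2 fold change -0.38, adjusted p = 0.0354), both past the adjusted p and under 2-fold.

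Some fibril-forming and associated collagens rose. Of 18 tested, 8 passed the adjusted p as higher and 1 as lower, and 5 were called higher. In the 5 fits with fewer libraries, 3, 9, 2, 2 and 2 were called higher. Col11a2 (chr17:34039437-34066685), a chain of the cartilage-type collagen that limits fibril width, was at 29.3 and 29.1 CPM at 24 h and at 982 and 1098 CPM at 14 d (log2 fold change 5.15, SE 0.204, adjusted p = 3.88e-05). Col2a1, the main cartilage collagen, was at 136 and 172 CPM and 864 and 926 CPM. Both held in all 4 fits with 1 library left out. The chains of type I collagen, the bulk of bone matrix, started high and moved less. Col1a1 was at 17105 and 26933 CPM at 24 h and at 48907 and 43362 CPM at 14 d, and Col1a2 at 17999 and 24974 CPM and 43557 and 41131 CPM. The 24 h replicates of Col1a1 differed by about as much as B differed from the 14 d libraries. Its log2 fold change of 1.07 (adjusted p = 0.0159) became 0.77 without 24 h A, and the adjusted p became 0.108 without 14 d A and 0.0888 without 14 d B. That of Col1a2 was 0.98 (adjusted p = 0.00976), under 2-fold. Col24a1 (log2 fold change 1.52) lost its call without 14 d A and without 14 d B (adjusted p = 0.0674 and 0.0618), and Col11a1 (1.06) without 24 h A, where the log2 fold change was 0.72, and without 14 d A or 14 d B (adjusted p = 0.078 and 0.127). Col3a1, the collagen of soft connective tissue, was the member past the adjusted p as lower, at 4688 and 6242 CPM and 3436 and 3661 CPM (log2 fold change -0.62).

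Enzymes that process collagen moved in one direction where they moved. Of 23 tested, 9 passed the adjusted p, each of them higher, and 4 were called. The 9 became 14, 13, 6, 6 and 2 in the fits with fewer libraries. P4ha1 and P4ha2, the catalytic subunits of the prolyl hydroxylase that uses ascorbic acid, were at 79.5 and 80.4 CPM and 45.5 and 39.7 CPM at 24 h and at 265 and 324 CPM and 108 and 123 CPM at 14 d, with log2 fold changes of 1.88 and 1.44 (adjusted p = 0.000249 and 0.000732). Loxl4, a crosslinking lysyl oxidase, was at 24.2 and 52.2 CPM and 157 and 182 CPM. P4ha1 is also a gene induced by low oxygen.

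Several cartilage genes rose alongside Col2a1 and Col11a2. Of 13 tested chondrocyte markers, 5 were called higher and 1 lower, with a median log2 fold change of 1.16. Fewer libraries gave 4, 7, 4, 3 and 2 called higher and 1, 1, 0, 0 and 0 called lower. Sox9, the transcription factor that starts cartilage formation, was at 36 and 47.6 CPM and 96.2 and 93 CPM, called with a log2 fold change of 1.18, and was just under 2-fold without 24 h A (0.99). Col9a1 had 2 counts in each 24 h library and was at 1.63 and 2.18 CPM at 14 d. Comp, a pentameric cartilage matrix protein, was at 2.92 and 2.15 CPM and 4.54 and 5.36 CPM (log2 fold change 0.96, adjusted p = 0.0374), under 2-fold. Acan, which encodes the aggrecan that defines cartilage matrix, was under the filter, with 0 counts in both 24 h libraries and 8 and 5 counts at 14 d, and Matn1 did not exceed 2 counts. The defining cartilage proteoglycan was thus close to 0 while Col2a1 and Col11a2 were high. Col2a1 was already high before the osteogenic medium, at 598 and 593 CPM in subconfluent and 303 and 280 CPM in confluent cells. It passed as lower at 24 h against confluent cells (log2 fold change -0.92, adjusted p = 0.0107). From 14 d to 21 d it passed as lower again (-1.52, adjusted p = 0.00076).

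Of the insulin-like growth factors, Igf2 rose, and Igf1 passed the adjusted p as lower under 2-fold. Igf2 (chr7:142650766-142666816), a fetal growth factor, was at 13 and 14.7 CPM at 24 h and at 437 and 487 CPM at 14 d (log2 fold change 5.06, SE 0.17, adjusted p = 2.77e-05). H19 (chr7:142575529-142578143), the imprinted noncoding RNA next to it, was at 11.2 and 10.3 CPM and 160.0 and 210.3 CPM. Exons of Igf2 overlap Gm49394 and the antisense gene Igf2os, whose reads cannot be told apart from those of Igf2 without strand. The binding proteins Igfbp4 and Igfbp2, which hold these factors outside the cell, went from 77.7 and 72.6 to 355 and 352 CPM and from 11.8 and 7.35 to 43.9 and 47.3 CPM. Igf1 was lower, at 19.1 and 21.5 CPM and 12.3 and 12.4 CPM (log2 fold change -0.72, adjusted p = 0.00551). With the 24 h and 14 d libraries alone it did not pass (adjusted p = 0.112). Over the list, 4 of 13 tested genes were called higher, or 4, 6, 4, 4 and 3 with fewer libraries, and none lower.

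Many genes of the low-oxygen response and of glycolysis, but not all, passed the test as higher. Under low oxygen the factor Hif1a escapes the prolyl hydroxylases that mark it for destruction and switches on glycolytic enzymes, pH regulators and its own hydroxylase Egln3. Of 26 tested genes, 17 passed the adjusted p, all as higher, and 8 were called higher, with a median log2 fold change of 0.70. With fewer libraries, 19, 20, 12, 9 and 5 passed as higher and 12, 9, 9, 7 and 5 were called, and without 24 h A 2 passed as lower. Car9, the carbonic anhydrase of hypoxic cells, was at 0.31 and 0.36 CPM at 24 h and at 29.2 and 40.7 CPM at 14 d (log2 fold change 6.70, SE 0.237, adjusted p = 3.08e-05). Ankrd37 was at 0.277 and 0.188 CPM and 9.43 and 12.1 CPM, and its exons overlap Lrp2bp and Ufsp2 on the other strand. Egln3 went from 0.383 and 0.278 CPM to 3.84 and 4.06 CPM. Bnip3, a mitophagy receptor, went from 15 and 11.8 CPM to 41 and 53.3 CPM, and Pdk1, which keeps pyruvate out of the mitochondrion, from 11 and 12.3 CPM to 36.1 and 44.5 CPM. Ndrg1 went from 9.72 and 14.9 CPM to 41.9 and 41.6 CPM and Pfkl, the liver-type phosphofructokinase, from 52.7 and 44.1 CPM to 125 and 157 CPM. The eighth, Adm, had 1 and 2 counts at 24 h and 25 and 11 at 14 d, and lost its call without either 14 d library (adjusted p = 0.0584 without A and 0.0716 without B). The glycolytic enzyme Aldoa (log2 fold change 0.92) and the angiogenic factor Vegfa (0.56) passed the adjusted p under 2-fold. The mRNA of Hif1a itself was at 40.0 and 65.8 CPM and 48.8 and 50.5 CPM (adjusted p = 0.81), and here the 14 d libraries lay between the 24 h libraries.

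The promoters of Car9 and Ankrd37 are shown as the pair with the largest rises in this list. Both are RefSeq windows on GRCm38.p6, Car9 at chr4:43506776-43507075 on the plus strand and Ankrd37 at chr8:45999801-46000100 on the minus strand. Capitals mark ACGTG, the core letters of the hypoxia response element, on either strand.
Car9: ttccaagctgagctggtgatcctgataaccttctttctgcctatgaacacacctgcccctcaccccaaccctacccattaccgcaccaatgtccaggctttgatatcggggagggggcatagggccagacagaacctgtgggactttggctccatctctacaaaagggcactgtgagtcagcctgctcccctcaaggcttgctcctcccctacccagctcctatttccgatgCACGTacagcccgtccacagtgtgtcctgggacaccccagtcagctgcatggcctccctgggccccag
Ankrd37: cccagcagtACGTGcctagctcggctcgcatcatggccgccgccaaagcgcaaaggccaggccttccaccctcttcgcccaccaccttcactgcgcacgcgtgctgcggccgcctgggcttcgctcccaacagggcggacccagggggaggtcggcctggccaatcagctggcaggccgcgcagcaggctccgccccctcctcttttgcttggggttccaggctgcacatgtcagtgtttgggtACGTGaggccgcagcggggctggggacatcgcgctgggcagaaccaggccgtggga
In Car9 the match began at base -18 from the RefSeq start site of the window, and in Ankrd37 matches began at -241 and at -6. The Ankrd37 window lies inside the whole gene as annotated in GENCODE, chr8:45996902-46005707. Of the 8 called genes, 7 had a window and 4 of them held the motif. Over all tested genes of the list the count was 16 of 23, and over all 32851 windows the share was 19.6%. The list counts are by gene, with a match in any window of the gene, and the share is by window.

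**Figure D4:**
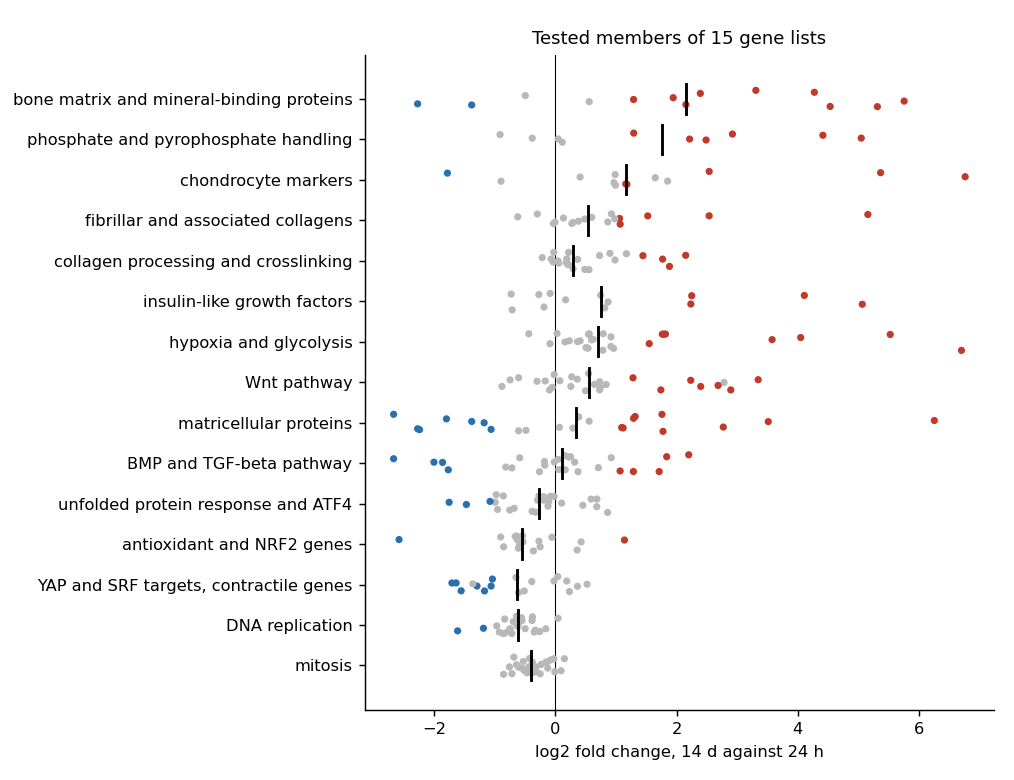
log2 fold change at 14 d against 24 h (horizontal axis) of every tested member of 15 gene lists (rows), with 1 point a gene, red where called higher, blue where called lower and grey where not called, and a black bar at the list's median. Medians run from 2.15 for the bone matrix list to -0.63 for the contractile list, beside 0.01 for all genes.

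Wnt signalling drives osteoblast formation, and the genes called higher included ligands and inhibitors. Of 27 tested genes 7 were called higher and none lower. The 7 became 6, 7, 5, 5 and 4 with fewer libraries. Wnt11 was at 1.26 and 1.1 CPM and 11.2 and 12.8 CPM (log2 fold change 3.34, adjusted p = 0.000234), and the nuclear effector Tcf7 at 51.3 and 63.5 CPM and 194 and 189.6 CPM. The secreted inhibitor Wif1 was at 37.9 and 41 CPM and 201 and 214 CPM, and the inhibitor Dkk2 at 0.783 and 1.08 CPM and 4.36 and 4.4 CPM. The co-receptor Lrp5 was at 107 and 182 CPM and 352 and 349 CPM, and its call was lost without 24 h A (log2 fold change 0.94), 14 d A (adjusted p = 0.0609) or 14 d B (adjusted p = 0.0664). Wnt7b (0.131 and 0.0572 CPM at 24 h, 0.881 and 0.516 at 14 d) lost its call without 14 d A (adjusted p = 0.0897), and Frzb, a further inhibitor, without 14 d B (adjusted p = 0.0585). Sfrp2 and the agonist Rspo2 passed the adjusted p as lower, with log2 fold changes of -0.61 and -0.75.

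In the BMP and TGF-β pathway, 5 of 26 tested genes were called higher and 4 lower, and the median was 0.10. With fewer libraries, 3, 6, 3, 3 and 1 were called higher and 4, 5, 4, 4 and 3 lower. The secreted BMP antagonists did not move as one. Grem1 fell from 4.29 and 5.66 CPM to 1.35 and 1.39 CPM, whereas Chrd rose from 8.48 and 7.9 CPM to 27.4 and 26.2 CPM. The ligand Gdf6 rose from 1.94 and 2.61 CPM to 7.89 and 8.35 CPM. The BMP target Id2 fell from 16.1 and 14.7 CPM to 4.37 and 4.69 CPM (log2 fold change -1.77, SE 0.0993, adjusted p = 0.000103), and Id3, at -0.82, passed the adjusted p under 2-fold. Tgfbi, named for its induction by TGF-β, fell from 12.5 and 11.1 CPM to 1.99 and 1.68 CPM (log2 fold change -2.67, adjusted p = 0.000374).

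Among 19 transcription factors of the osteoblast lineage, 4 were called higher and 2 lower, and the median was 0.05. Those called higher were 2, 4, 3, 3 and 1 and those called lower 2, 3, 3, 1 and 1 with fewer libraries. Dlx3, a homeobox gene of late osteoblasts, was at 3.37 and 3.26 CPM and 22 and 22.5 CPM (log2 fold change 2.75, adjusted p = 0.000186). Mef2c was at 18.1 and 26.3 CPM and 57.6 and 64 CPM. Msx2, a homeobox gene of progenitors, fell from 7.85 and 7.42 CPM to 2.23 and 2.36 CPM. Twist2 fell from 0.889 and 0.507 CPM to 0.12 and 0.0897 CPM and lost its call without 14 d B (adjusted p = 0.0625). The commitment factors Sp7 and Runx2 were not called. Sp7 had a log2 fold change of 0.59 (adjusted p = 0.00545) and Runx2 of 0.43 (adjusted p = 0.0782), which did not pass. The value of Runx2 was 0.23 without 24 h A and 0.61 without 24 h B. Of 15 genes listed for osteocytes, 11 were tested and 3 called higher. Mepe was at 0.71 and 0.646 CPM and 11.8 and 14.4 CPM, and Dmp1, an acidic protein of young osteocytes, at 1.31 and 1.05 CPM and 12.1 and 11.3 CPM. Phex, given above, was the third of them. The late osteocyte genes Sost and Fgf23 had 0 counts in all 4 libraries, which allows up to 3 counts in each.

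Signals from osteoblasts to osteoclasts were read from 12 tested genes, 3 called higher and 1 lower. In the fits with fewer libraries 3, 3, 3, 3 and 1 were called higher and 2, 1, 0, 1 and 0 lower. Tnfrsf11b, osteoprotegerin, the decoy that blocks RANKL, was at 51.2 and 75.6 CPM and 145 and 161 CPM. Tnfsf11, RANKL, was under the filter, and did not exceed 1 count in a library. Il34, a ligand of the macrophage receptor Csf1r, went from 2.86 and 2.3 CPM to 6.3 and 6.42 CPM and Sema4d from 0.163 and 0.147 CPM to 1.29 and 1.12 CPM. Mmp13, the collagenase of bone, was at 18.3 and 20.5 CPM and 127 and 155 CPM (log2 fold change 2.86, adjusted p = 8.15e-05). Of 18 tested proteases and inhibitors, Mmp13 and Timp4 were the 2 called, 11.1% beside 5.98% of all genes tested. Panx3, a channel protein of osteoblasts and cartilage, rose from 77.3 and 82.1 CPM to 254 and 293 CPM. In the PTH and vitamin D axis the receptor Pth1r had a log2 fold change of 1.01 (0.81 without 24 h B and 0.95 without 14 d B), and Gprc5a fell from 3.34 and 3.29 CPM to 0.921 and 1.08 CPM.

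The list of matricellular and related matrix proteins split. Of 22 tested, 9 were called higher and 7 lower. The 9 became 7, 9, 6, 5 and 1 with fewer libraries, and the 7 became 7, 7, 7, 7 and 4. Tnn, tenascin-N, fell from 94 and 157 CPM to 23.9 and 28 CPM (log2 fold change -2.27, SE 0.251, adjusted p = 0.00178). Postn, periostin, fell from 2792 and 3602 CPM to 1201 and 1251 CPM. Of the CCN family, Ccn3 fell from 70.9 and 79.5 CPM to 15 and 16.8 CPM, Ccn5 from 11.9 and 9.42 CPM to 2.79 and 3.37 CPM and Ccn1 from 469 and 468 CPM to 217 and 231 CPM. In the other direction, Smoc2 rose from 3.14 and 2.64 CPM to 18.9 and 20.5 CPM and Fbln2, fibulin 2, from 112 and 151 CPM to 452 and 448 CPM. Eln, elastin, was low throughout, at 0.0326 and 0.0899 CPM and 0.705 and 0.718 CPM. Fn1, fibronectin, was at 2183 and 4540.4 CPM at 24 h and at 11398 and 11323 CPM at 14 d. Its 24 h replicates differed by about 2-fold, and its call was lost without 14 d A (adjusted p = 0.0587) or 14 d B (adjusted p = 0.0666). Among the small leucine-rich proteoglycans, 3 of 10 tested were called higher and 1 lower. With fewer libraries these were 2, 5, 2, 3 and 1 higher and 1, 1, 0, 1 and 0 lower. Prelp rose from 51.7 and 63.1 CPM to 271 and 270.1 CPM, and lumican, Lum, fell from 666 and 639 CPM to 300.2 and 332 CPM, with a log2 fold change of -0.98 without 14 d A.

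Some genes of the contractile cytoskeleton, among them targets of the actin-sensing factors SRF and YAP, fell. Of 18 tested, 11 passed the adjusted p, all as lower, and 7 were called lower, with a median log2 fold change of -0.63. With fewer libraries 10, 11, 6, 6 and 2 passed as lower and 6, 7, 6, 6 and 2 were called lower, and without 24 h B 4 passed as higher, of which 1 was called. Acta2, smooth muscle actin, was at 1888 and 1524 CPM at 24 h and at 542 and 618 CPM at 14 d (log2 fold change -1.56, SE 0.132, adjusted p = 0.000596). Myl9, a myosin light chain, fell from 329 and 227 CPM to 79 and 91.1 CPM, Actg2 from 45 and 35.8 CPM to 12.4 and 13.5 CPM and the tropomyosin Tpm1 from 1864 and 1638 CPM to 788 and 768 CPM. The YAP target Ankrd1 fell from 22.8 and 22.4 CPM to 9.08 and 9.33 CPM. Srf itself passed the adjusted p under 2-fold (-0.65), as did Ccn2 (-0.61). Acta2, Myl9 and Tpm1 lost their calls with the 24 h and 14 d libraries alone (adjusted p = 0.0701, 0.0711 and 0.0969). The promoter window of Myl9, chr2:156775214-156775513 on the plus strand of GRCm38.p6, is shown as the called gene of this list in which the CArG box, the letters bound by SRF, was found. Capitals mark it, from base -161 to -152.
Myl9: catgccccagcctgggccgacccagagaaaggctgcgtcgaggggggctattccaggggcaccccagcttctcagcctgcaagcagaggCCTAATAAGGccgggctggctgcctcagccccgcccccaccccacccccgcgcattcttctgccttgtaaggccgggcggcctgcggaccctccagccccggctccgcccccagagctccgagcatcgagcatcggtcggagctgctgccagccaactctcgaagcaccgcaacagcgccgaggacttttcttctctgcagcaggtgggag
Of the 7 called genes 6 had a window and 1 held the box. Over all tested genes of the list it was 4 of 15, and over all windows the share was 1.63%. Here too the list counts are by gene and the share is by window.

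Some genes for amino acid supply under the factor Atf4 fell. Of 25 tested genes of the unfolded protein response and Atf4, 9 passed the adjusted p as lower and 3 as higher, and 3 were called lower. Those passing as lower numbered 10, 17, 7, 5 and 2 with fewer libraries, and those called 2, 6, 4, 3 and 2. Asns, asparagine synthetase, was at 143 and 121 CPM at 24 h and at 51.2 and 44.2 CPM at 14 d (log2 fold change -1.47, SE 0.118, adjusted p = 0.000502). Chac1, which degrades glutathione, fell from 19.3 and 18.6 CPM to 6.21 and 4.98 CPM. Mthfd2, of mitochondrial folate metabolism, fell from 119 and 103 CPM to 55 and 49.9 CPM, with a log2 fold change of -0.98 without 24 h A. Atf4 had a log2 fold change of -0.99 and the serine synthesis genes Psat1 and Phgdh of -0.96 and -0.98, each past the adjusted p (0.00467, 0.000545 and 0.0166) and just under 2-fold. Hspa5, the chaperone of the endoplasmic reticulum that reports unfolded protein, was at 414 and 377 CPM and 363 and 363 CPM and did not pass (adjusted p = 0.425). The promoters of Asns, chr6:7693160-7693459 on the minus strand, and Chac1, chr2:119350992-119351291 on the plus strand, are shown because both hold the motif marked in Bglap above, here in genes that moved the other way. Capitals mark TGATGNAA on either strand.
Asns: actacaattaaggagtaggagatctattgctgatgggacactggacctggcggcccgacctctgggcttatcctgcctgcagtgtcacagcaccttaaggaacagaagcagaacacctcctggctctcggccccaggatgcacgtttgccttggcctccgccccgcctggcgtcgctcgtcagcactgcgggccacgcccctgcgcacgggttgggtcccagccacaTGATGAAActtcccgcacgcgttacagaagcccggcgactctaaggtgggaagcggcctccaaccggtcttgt
Chac1: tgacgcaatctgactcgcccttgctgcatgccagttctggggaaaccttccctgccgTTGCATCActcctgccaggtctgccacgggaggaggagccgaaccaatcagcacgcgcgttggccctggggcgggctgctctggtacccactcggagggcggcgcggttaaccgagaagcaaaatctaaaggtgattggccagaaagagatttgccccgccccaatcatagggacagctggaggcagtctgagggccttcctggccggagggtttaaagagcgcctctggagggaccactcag
The match runs from base -23 to -16 in Asns and from -193 to -186 in Chac1. Mthfd2, the other called member, did not hold it in its window, and of the 22 tested members with a window 5 did.

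Most DNA replication genes and a minority of mitosis genes passed the test as lower, few of them by more than 2-fold. Of 29 DNA replication genes, all tested, 21 passed the adjusted p as lower and none as higher, with a median log2 fold change of -0.62, and 2 were called lower. The count of 21 rested on both 14 d libraries, with 23, 25, 3, 1 and 1 passing as lower in the fits with fewer libraries, and 2, 4, 2, 1 and 1 called. Ccne1, cyclin E1, which starts DNA synthesis, was at 17.9 and 16 CPM and 5.77 and 5.27 CPM (log2 fold change -1.62, adjusted p = 0.00121). Mcm5, part of the replicative helicase, was at 107 and 115 CPM and 67.2 and 64.8 CPM, and Rrm2, of ribonucleotide reductase, at 71.7 and 74.3 CPM and 42.7 and 43.5 CPM. Of 28 mitosis genes, 6 passed as lower, beside 8.21% of all genes tested, and none was called, with a median of -0.41. For these the counts were 3, 11, 0, 0 and 0 passing as lower, and without 24 h B 1 was called lower. Aurka, an example of these, was at 38.6 and 31.4 CPM and 20.3 and 21 CPM.

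Of 17 antioxidant genes 9 passed the adjusted p as lower and 2 as higher, with a median of -0.55. With fewer libraries, 9, 13, 4, 1 and 0 passed as lower. Nqo1, a quinone reductase, had a log2 fold change of -0.90 (adjusted p = 0.00181), and Gsta4, the 1 called lower, lost its call without 14 d A (adjusted p = 0.0637) or 14 d B (adjusted p = 0.101). Of 23 respiratory chain genes 5 passed as lower, beside 8.21% of all genes tested, and none as higher, with a median of -0.39. This became 7, 21, 0, 0 and 0. The complement gene C3 rose from 1.71 and 2.17 CPM to 37.3 and 39.4 CPM. Of 15 tested complement and chemokine genes 3 were called higher and 1 lower. Of the circadian list, 7 of 16 tested genes passed as higher and none as lower. The 7 became 8, 9, 4, 3 and 1, and 1 passed as lower without 24 h A and without 24 h B. Its transcriptional repressors Bhlhe41 and Bhlhe40, both also induced by low oxygen, rose from 4.69 and 4.41 to 40.8 and 39.5 CPM and from 26.2 and 31.9 to 63.5 and 71.4 CPM. Hsd11b1, which reactivates glucocorticoid, rose from 0.22 and 0.163 CPM to 1.87 and 1.79 CPM. Zbtb16, a glucocorticoid-induced factor, had 0 and 2 counts at 24 h and was at 1.75 and 1.46 CPM at 14 d. Of 16 tested genes of the glucocorticoid and steroid response 2 (12.5%) were called, both higher, beside 5.98% of all genes tested. Klf2 and Klf4 rose with log2 fold changes of 1.27 and 1.34, and Spry1, a feedback inhibitor of ERK signalling, from 3.79 and 3.75 CPM to 16.1 and 17.3 CPM. Of 22 tested immediate early genes 2 (9.09%) were called, both higher. In that list 5 passed as higher and 5 as lower, with a median of -0.15. Of 18 tested genes of FGF and ERK feedback 1 was called higher and 1 lower (11.1%).

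Histone demethylases, a subject of the study, held 21 tested genes. Of these 4 passed the adjusted p as higher, beside 9.08% of all genes tested, and 2 (9.52%) were called, beside 5.98%. In the fits with fewer libraries 4, 15, 1, 1 and 0 passed as higher and 0, 4, 1, 1 and 0 were called. Kdm3a, which removes methyl groups from histone H3 lysine 9 and is induced by low oxygen, was at 21 and 30.9 CPM and 56 and 61.9 CPM, with a log2 fold change of 0.93 without 24 h A. Kdm7a was called at 1.15, and the call was lost without 24 h A (0.84), 14 d A (adjusted p = 0.0633) or 14 d B (adjusted p = 0.0675). Kdm1a, which encodes LSD1, was at 52.2 and 49.2 CPM and 43.3 and 43.8 CPM, a log2 fold change of -0.22 (adjusted p = 0.0726). Without 24 h A its log2 fold change was -0.18, and without 24 h B it was -0.31. Of the other lists, those for cholesterol synthesis, fatty acid synthesis, lysosome, antigen presentation, D cyclins and cyclin-dependent kinase inhibitors, and hedgehog signalling had no member called. Without 24 h B, hedgehog signalling had 3 members called higher, D cyclins and their inhibitors 2, lysosome and fatty acid synthesis 1 each, and antigen presentation had 2 and cholesterol synthesis 1 called lower.

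Col1a1, Ibsp and Alpl, which mark the labelled cell type, were present in all 4 libraries, as were Bglap and Col1a2, given above. Chondrocyte markers are also given above, and Col2a1 was at 33.1 and 44.9 RPKM at 24 h and 202 and 210 RPKM at 14 d. At 24 h the levels of Col1a1 were 3788 and 6406 RPKM, of Ibsp 959 and 1124 RPKM and of Alpl 11 and 11.9 RPKM, and at 14 d they were 10422 and 8996, 4081 and 4374 and 24 and 27.4 RPKM. Of the blood, adipocyte, endothelial, muscle and epithelial markers, about as many were under the filter as were tested. Of 14 macrophage and blood cell markers 7 were tested, with none called higher and 1 called lower, and Ptprc had 0 counts and Adgre1 at most 1 count in the 4 libraries. Their summed level was 73.5, 44.5, 60.1 and 149 CPM in 24 h A, 24 h B, 14 d A and 14 d B, and the excess in 14 d B was in Tyrobp, at 88.39 CPM there and 0.2002 CPM in 14 d A. Tyrobp is 1 of 8 genes of a stretch of chromosome 7 that were over 16-fold higher in 14 d B than in 14 d A. Of 13 adipocyte markers 6 were tested, of which Plin4, at 0.0245 and 0.0736 CPM and 1.01 and 0.426 CPM, was called higher and Fabp4, at 0.408 and 0.433 CPM and 0.0961 and 0.0224 CPM, lower. Plin4 lost its call without 14 d A (adjusted p = 0.056), and Fabp4 without 24 h A (adjusted p = 0.0593), 14 d A (0.0715) or 14 d B (0.174). Adipoq and Plin1 had at most 4 counts and Pparg was at 0.0245 and 0.049 CPM and 0.0801 and 0.0673 CPM. Of 8 endothelial and 8 muscle markers 4 each were tested and none called, and Cdh5, Kdr, Myod1 and Myog had at most 2 counts. Of 8 epithelial markers 4 were tested and 3 called higher, while Epcam, Krt8 and Krt18 had 0 counts. Cgn, a tight junction protein, was at 3.96 and 5.4 CPM and 91.3 and 104 CPM, and Krt14 at 2.26 and 1.42 CPM and 10.9 and 7.36 CPM. Cdh1 was under 1 CPM throughout and lost its call in each of the 4 fits with 1 library left out (adjusted p from 0.063 to 0.252). The part of other cells in these results was not tested beyond these markers.

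Since index set and stage cannot be told apart, the changes within each set are given side by side, 24 h against confluent cells in one and 21 d against 14 d in the other. These comparisons share libraries with the one above. Confluent A and 24 h A have the same index and lane label, as do 21 d A and a lane of 14 d A. Libraries of the same index set were therefore not all sequenced together. The log2 fold changes of Igf2 were 2.55 from confluent to 24 h (adjusted p = 0.000555), 5.06 from 24 h to 14 d and -0.23 from 14 d to 21 d (adjusted p = 0.401). For Ibsp they were 2.46, 2.15 and -0.81, and for Bglap 1.13, 5.31 and -0.17. Igf2 and Ibsp had thus already passed the test as higher by 24 h within the first set (adjusted p = 0.000555 and 0.00278), and Bglap had not (adjusted p = 0.231). Some genes peaked at 14 d. Phospho1 passed as lower again at 21 d (log2 fold change -2.45, adjusted p = 0.000164), as did Col22a1 (-1.33), Col11a2 (-1.78), Prex1 (-2.04) and Tnfrsf11b (-2.44). Others did not pass the test at 21 d, among them Car9 (0.40, adjusted p = 0.23), Timp4 (0.18, adjusted p = 0.691) and Acta2 (0.02, adjusted p = 0.977). Chac1, Asns and Atf4 rose after 14 d. Chac1 was at 33.4 and 31.6 CPM at 21 d, a log2 fold change of 2.53 (adjusted p = 0.000301), Asns at 109 and 101 CPM (1.14, adjusted p = 0.00138) and Atf4 at 287 and 265 CPM (0.96, adjusted p = 0.00564). Mcm5 and Ccne1 were lower still at 21 d. Mcm5 was at 12.6 and 15 CPM, a log2 fold change of -2.26 from 14 d (adjusted p = 0.000203), and Ccne1 at 1.21 and 1.76 CPM (-1.88, adjusted p = 0.000883). Tnn had risen from 47.9 and 38.7 CPM in confluent cells to its 24 h level (1.54, adjusted p = 0.0162) and was at 56.1 and 56 CPM at 21 d.

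**Figure D5:**
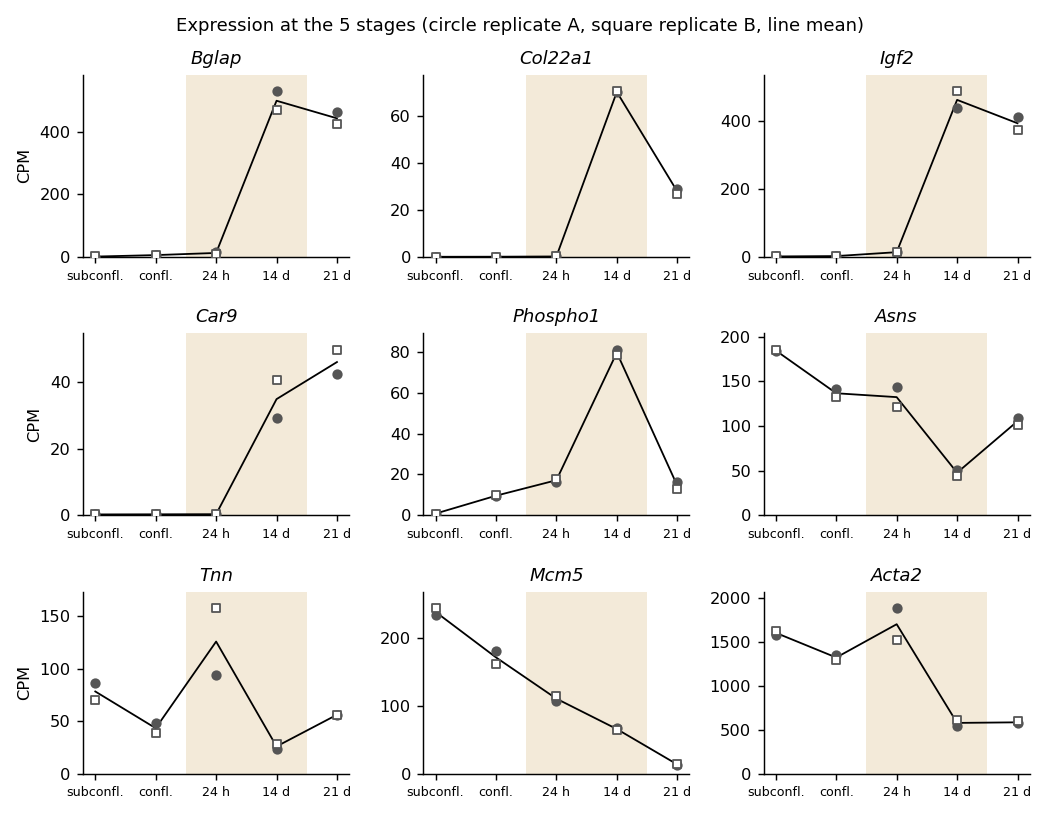
Normalized expression (vertical axes, CPM, each from 0) of 9 genes at the 5 stages (horizontal axes), with the 24 h and 14 d stages shaded, circles for replicate A, squares for B and a line through the means. Phospho1 and Col22a1 are highest at 14 d, Asns is lowest at 14 d, and Mcm5 falls at each stage from subconfluent cells to 21 d.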

How the data were processed

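RNA of MC3T3-E1 cells was sequenced as 51 bp paired-end reads. The submitters' processing notes name FastQC, TopHat2 2.0.9, R 3.0.1 and the mm10 build, and the counting tool, and whether it counted per gene or summed over exons, is not given in the sources used here. The authors deposited whole-number counts per gene without normalization, and RPKM values, which are scaled to gene length and library size. The 14 d A library was sequenced in 2 lanes, and its merged column, which is not the lane sum for 13526 genes, was used.

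Counts of all 10 samples in 5 groups were fitted in edgeR 4.0.16 (R 4.3.3) with filterByExpr, TMM and the quasi-likelihood test, contrast 14d minus 24h, with Benjamini-Hochberg adjustment over 20808 genes. Genes were called at adjusted p under 0.05 and more than 2-fold. Standard errors are the log2 fold change over the root of F. The report gives the depth of the 24h and 14d samples. A count of 0 allows up to 3, for counting error only. Symbols and positions came from GENCODE vM21, and promoter windows from RefSeq on GRCm38.p6.

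Named genes were the 12 largest rises and 12 largest falls among genes called with and without each 24h and 14d library, with a mean of at least 5 CPM, groups that did not overlap and a symbol other than a clone name, plus members of 43 gene lists. Of the falls, 1 is not reported here. The genes and lists were chosen with earlier results of these data known. Pipelines were tested on simulated data. Alternatives were other scaling factors, filters, thresholds and samples, a replicate block, DESeq2 1.42.0, limma 3.58.1 on log2(RPKM + 1) and log2(RPKM + 0.1), the lane sum, removal of a gene length trend (lowess span 0.3), and leaving out each library.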

Additional observations from a re-analysis of the deposited data

How the results depend on the processing

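The 1245 calls, 930 higher and 315 lower, ran from 627 to 3055 when 1 library was left out, the higher from 479 to 2187 and the lower from 148 to 868. Fitting only the 24h and 14d samples gave 319 calls, 265 higher and 54 lower. Requiring at least 10 counts in every sample gave 732, of which 508 were higher, and limma on log2(RPKM + 1) gave 500, with 296 higher and 204 lower. Without a limit on fold change there were 3597, 1889 higher and 1708 lower. With more than 4-fold there were 596, 505 higher and 91 lower, and with adjusted p under 0.01 there were 689, 523 higher and 166 lower. The other alternatives stayed within 1.5-fold of each count, except the block in the 24h and 14d samples alone, whose counts are given with the replicate block. The share of calls that were higher was 74.7%, and 64.8% by library size alone, 59.2% by limma on log2(RPKM + 1) and 63.7% on log2(RPKM + 0.1).

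The letters A and B share only a letter between groups. The correlation of the A to B ratios at 24 h and 14 d over genes was -0.00835. With the replicate block the fit gave 1039 calls, 771 higher and 268 lower, and with the block in the 24h and 14d samples alone 336, with 281 higher and 55 lower.

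Over 137 named genes and 17 refits, the direction changed once, for Hif1a without 24 h B (log2 fold change 0.26, adjusted p = 0.0564), and leaving out 1 library at a time moved that gene from -0.41 to 0.26. A call was lost in 173 of 2302 refits and gained in 31. The causes were not tested. The depth of 14 d B limits what could be seen of low genes.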

Other observations

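Some genes stood out in 1 library of a pair, by over 16-fold after 1 CPM was added to each value. There were 22 such genes at 24 h and 44 at 14 d. Of these 66, edgeR called 0, with 15 at an unadjusted p under 0.05, whereas DESeq2 called 18. In 24 h A, 10 of these genes lay between 101582242 and 101894374 on chromosome 11 (GRCm38), and for all of them but Gm11634 the excess over 24 h B was nearly the same per exon. Divided by the number of exons, the excess was 59.3 CPM for Tmem106a with 8 exons, 59.9 CPM for Rdm1 with 8, 58.7 CPM for Dhx8 with 23, 59 CPM for Etv4 with 14, 58.9 CPM for Meox1 with 3 and 59 CPM for the single-exon gene Rnu2-10. The exception, Gm11634 with 4 exons, had 44.2 CPM per exon. In all, Dhx8 was at 1383 CPM in 24 h A and 33.07 CPM in 24 h B, and Etv4 at 829.4 and 3.858 CPM. Elsewhere on the chromosome Npc1l1, with 19 exons, was at 467.1 and 0.008174 CPM, an excess of 24.6 CPM per exon, and the single-exon gene Gm11969 next to it had an excess of 24.8 CPM. In 14 d B the stretch with Tyrobp, Hcst, Nfkbid, Aplp1, Kirrel2 and Nphs1 on chromosome 7 had an excess of 14.7 to 20.4 CPM per exon over 14 d A, and the neighbouring Wdr62 and Nphs1os had 4.08 and 11.8 CPM. The difference in these genes lay between libraries of 1 group. Whether a read was counted once per gene or once for each exon is not given in the sources used here, so a count cannot be read as a number of distinct reads.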
